A study of Mus musculus with 12 samples.

Results

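The glial reactivity genes described here are 10 genes chosen by name: Gfap, Vim, Nes, Serpina3n, Lcn2, Igfbp5, Osmr, Cebpd, S100a6 and Cd44. They are 10 of the 56748 genes in the deposited count table, and each symbol stood on 1 Ensembl gene. Values come from whole retinas of JR5558 mice and of C57BL/6J mice, the wild-type controls, at 4 and at 8 weeks of age. Each of the 4 groups held 3 retinas, each from a separate mouse, and poly-A RNA was sequenced as paired-end reads. JR5558 is an inbred line in which new vessels grow spontaneously into the subretinal space. Crb1 (the rd8 mutation) and Jak3 are mutant in this line, so the comparison is between whole strains and not between animals that differ in 1 gene. The labels give no sex, treatment or lesion count for any mouse.

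Reactive gliosis is the response of Müller glia and astrocytes to damage of the retina. Müller cells span the retina and normally hold vimentin and little GFAP, while the astrocytes of the nerve fibre layer hold GFAP at all times, and injury typically raises GFAP in Müller cells. One route to these genes runs from cytokines of the interleukin-6 family (LIF, CNTF, oncostatin M) through receptors that contain gp130, the product of Il6st, to JAK kinases and STAT3, which acts on promoters of genes such as Socs3 and Gfap. In whole retina a higher level can mean more cells of a type or more RNA per cell, and these cannot be told apart.

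At both ages most of these genes were higher in JR5558 retinas. At 4 weeks 6 of the 10 were higher past an adjusted p of 0.05 (edgeR's quasi-likelihood test over 18334 genes, Benjamini-Hochberg), 0 were lower and 4 did not pass. Of all tested genes 6.16% passed in this comparison, 3.27% of them as higher in JR5558. At 8 weeks 6 were again higher, 0 were lower and 4 did not pass, against 5.18% of all genes in either direction and 2.54% as higher. Gfap, Vim, Serpina3n, Cebpd and Osmr passed at both ages, Igfbp5 at 4 weeks and S100a6 at 8 weeks, while Nes, Lcn2 and Cd44 passed at neither. The median log2 fold change of the 10 genes was 0.65 at 4 weeks and 0.47 at 8 weeks, where that of all tested genes was -0.0012 and -0.00070. These 10 genes were chosen with earlier results of these data known. The values over all genes are thus given for scale, and no enrichment was tested. With a covariate for pigment epithelium markers, whose summed level did not overlap between the strains, 0 passed at either age (1.02% and 1.19% of all tested genes did). All 10 passed the filter on low counts. The 2 strain comparisons use different mice.

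Depth ran from 18029611 to 23739886 counts per library. Sex was not balanced. Xist, which is transcribed from the inactive X chromosome, ran from 370 to 1221 CPM (counts scaled to a common library total) in 9 libraries and was at most 0.261 CPM in the JR5558 retinas of 4 weeks. Ddx3y, a gene of the Y chromosome, ran from 65.0 to 78.6 CPM in those 3 libraries and had 0 counts in the other 9. At 4 weeks strain and sex therefore cannot be told apart, and neither can age and sex in JR5558. A change of the strain difference between ages is mixed with sex in the same way. Both groups of 8 weeks held Xist and lacked Ddx3y, so the strain comparison at 8 weeks is free of this difference. The labelled tissue was present in every library by its markers: no rod or Müller glia marker was at 0 throughout. At 4 weeks the sum of the 10 rod markers ran from 58488 to 63246 CPM in control retinas and from 56851 to 63728 CPM in JR5558, which overlapped. At 8 weeks the ranges were 66961 to 69940 CPM and 59204 to 61469 CPM and did not overlap.

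The genes lie on 7 chromosomes. In the GENCODE M21 annotation of GRCm38 they are Gfap (ENSMUSG00000020932, chr11:102887336-102900912, minus strand), Vim (chr2:13573927-13582826, plus), Nes (chr3:87971078-87980451, plus), Serpina3n (ENSMUSG00000021091, chr12:104406729-104414329, plus), Cebpd (ENSMUSG00000071637, chr16:15887286-15891031, plus), S100a6 (chr3:90612882-90624181, plus), Igfbp5 (chr1:72857932-72874884, minus), Lcn2 (chr2:32384633-32388252, minus), Cd44 (chr2:102811141-102901665, minus) and Osmr (chr15:6813577-6874969, minus). The positions in the deposited table differ from these for all 10 genes, and its build is not settled, so they are not printed. Cebpd overlaps Spidr on the opposite strand, which had 89 to 212 counts per library against 186 to 1022 for Cebpd. The labels do not settle whether the libraries kept strand, so reads of these 2 genes may not be separated. Serpina3n shares 6.90% of its 50-base transcript windows with relatives in its gene cluster, and the relative that shares most, the pseudogene Serpina3e-ps, had at most 3 counts in any library. Of the 13 other Serpina3 genes and pseudogenes in the table only Serpina3g had more than 8 counts in any library (1 to 14).

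Promoter sequence is shown for Gfap, Serpina3n and S100a6, and beside it 30 bases around motif matches of Lcn2 and of linked genes. After subtraction of group means, Gfap with Serpina3n and Gfap with S100a6 had the highest correlations of the 45 pairs of members (Pearson r = 0.70 and 0.67). These are the top values of many pairs and were not tested. The sequences come from RefSeq for GRCm38.p6, and 9 of the 10 members matched an entry there. Each window holds the 200 bases that lie 250 to 51 bases before the RefSeq start, written 5′ to 3′ on the gene's strand. None of these 3 windows holds an annotated exon base, and neither do those of Nes, Igfbp5 and Cd44. Annotated exons cover all 200 bases of the windows of Vim and Osmr and 147 bases of that of Lcn2. Capitals would mark a match to 1 of 3 motifs, searched on both strands: STAT (TTCNNNGAA), AP-1 (TGANTCA) and C/EBP (TTNNGCAA).
Gfap, chr11:102897251-102897450, minus strand: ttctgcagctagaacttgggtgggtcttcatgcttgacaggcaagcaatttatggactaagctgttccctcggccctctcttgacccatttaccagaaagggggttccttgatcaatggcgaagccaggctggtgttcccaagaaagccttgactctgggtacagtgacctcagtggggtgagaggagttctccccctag
Serpina3n, chr12:104406458-104406657, plus strand: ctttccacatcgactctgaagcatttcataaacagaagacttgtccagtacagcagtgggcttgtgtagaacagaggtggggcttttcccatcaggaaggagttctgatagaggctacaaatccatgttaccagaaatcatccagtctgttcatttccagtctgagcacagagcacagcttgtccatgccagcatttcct
S100a6, chr3:90612644-90612843, plus strand: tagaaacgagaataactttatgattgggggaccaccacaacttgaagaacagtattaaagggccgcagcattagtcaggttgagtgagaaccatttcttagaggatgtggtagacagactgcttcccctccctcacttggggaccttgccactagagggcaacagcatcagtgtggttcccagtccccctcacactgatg
Of the 9 members with a window, 1 held a match: Lcn2, with the C/EBP letters on the opposite strand, 216 to 209 bases before its start, within annotated exon. Among 6 linked genes looked at in the same way (Stat3, Socs3, Bcl3, Steap4, Edn2 and Fgf2), the STAT letters stood in Socs3 and Steap4, though all 6 passed the test at 4 weeks, and Steap4 also held the C/EBP letters.
Lcn2, C/EBP, chr2:32387937-32387966, minus strand: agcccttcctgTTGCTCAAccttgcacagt
Socs3, STAT, chr11:117969501-117969530, minus strand: gaaaccagccTTCTTAGAAgggaggggggg
Steap4, STAT, chr5:7960346-7960375, plus strand: ggttgaactcTTCCCGGAAactttgcttca
Over 32851 promoter windows of the same length, 5.76% held the STAT letters, 5.57% the AP-1 letters and 8.11% the C/EBP letters. A match describes letters only, and these windows say nothing of sites that lie farther away.

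Levels between genes are compared in FPKM, which the authors deposited and which take gene length into account. Vim was the highest of the 10, with a median of 34.5 FPKM over the 12 libraries and a range of 25.2 to 41.0. Igfbp5 (median 10.0, range 8.16 to 14.0), Gfap (9.14, 6.92 to 17.8) and Serpina3n (7.21, 2.76 to 15.5) followed, and the ranges of these 3 overlapped. S100a6 (3.48, 1.90 to 8.11) and Cebpd (3.26, 2.44 to 12.0) came next and overlapped as well. Lcn2 (1.75, 0.961 to 2.33), Cd44 (1.64, 1.27 to 1.85), Osmr (0.874, 0.568 to 1.83) and Nes (0.843, 0.737 to 1.31) were lowest and also overlapped. The members with the widest range over the 12 libraries were Serpina3n (highest over lowest 5.62), Cebpd (4.90) and S100a6 (4.31), and the narrowest was Cd44 (1.45).

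Of the filament genes, Gfap, which encodes the glial intermediate filament that is the usual marker of gliosis, was higher in JR5558 at both ages. At 4 weeks Gfap stood at 29.9, 33.4 and 32.4 CPM in C57BL/6J replicates 1 to 3 and at 75.6, 42.3 and 55.3 CPM in JR5558. At 8 weeks the levels were 35.4, 29.4 and 29.8 CPM against 43.0, 43.8 and 52.4 CPM. The strains did not overlap at either age, and the JR5558 retinas of 4 weeks were spread most widely (57.8 ± 16.8 CPM, SD, n = 3, against 46.4 ± 5.22 at 8 weeks). Gfap was 1.81-fold higher at 4 weeks (log2 fold change 0.86 ± 0.15, standard error, edgeR adjusted p = 0.00138). At 8 weeks it was 1.47-fold higher (0.56 ± 0.15, adjusted p = 0.0403). The 8-week call ended when any 1 of the 6 libraries of that age was left out (adjusted p up to 0.216, without JR5558 replicate 3).

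Vim encodes vimentin, the filament protein that Müller cells hold without injury. Its levels at 4 weeks were 129, 121 and 158 CPM in C57BL/6J and 192, 170 and 187 CPM in JR5558. At 8 weeks they were 147, 149 and 143 CPM against 193, 188 and 196 CPM. The strains did not overlap, with a smaller ratio than Gfap and an SD of 3.10 to 19.5 CPM in the 4 groups. Vim was 1.34-fold higher at 4 weeks (0.43 ± 0.09, edgeR adjusted p = 0.00471) and 1.31-fold higher at 8 weeks (0.39 ± 0.09, adjusted p = 0.0102). A fit of the 4-week groups alone ended that call (adjusted p = 0.0594). The 8-week call was lost in the fits that dropped JR5558 replicate 3 (0.0533) or C57BL/6J replicate 3 (0.0570).

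Nes encodes nestin, a filament protein of progenitors and of some reactive glia. Nes stood at 6.18, 8.50 and 5.08 CPM in C57BL/6J and at 6.19, 6.64 and 5.20 CPM in JR5558 at 4 weeks. At 8 weeks the values were 7.61, 5.37 and 5.51 CPM against 4.76, 5.14 and 4.81 CPM, so that all 3 JR5558 retinas lay below all 3 controls. Neither difference passed the test (log2 fold change -0.13 ± 0.21, edgeR adjusted p = 0.797, and -0.33 ± 0.21, adjusted p = 0.456). Of 14 intermediate filament genes tested, 4 were higher at 4 weeks (Gfap, Vim, Krt8 and Krt18), 3 at 8 weeks (Gfap, Vim and Krt18) and 0 lower at either age, and the list's median was 0.10 and -0.12. Krt8 (1.44 ± 0.41, adjusted p = 0.0397, at 4 weeks) and Krt18 (0.62 ± 0.09 and 0.33 ± 0.09) encode keratins of simple epithelia and also stand on the list of pigment epithelium markers. Krt8 missed the threshold in 6 of the 12 fits with 1 library less (edgeR adjusted p up to 0.168). Those fits lacked, at 4 weeks, replicates 1 or 2 of C57BL/6J and replicates 1 or 3 of JR5558, and, at 8 weeks, C57BL/6J replicate 2 and JR5558 replicate 1. At 8 weeks the Krt18 call ended without any C57BL/6J retina of that age, JR5558 replicate 2 of either age, or JR5558 replicate 3 of 8 weeks (up to 0.181). The neurofilament genes Nefl, Nefm and Nefh of that list passed at neither age.

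**Figure D1:**
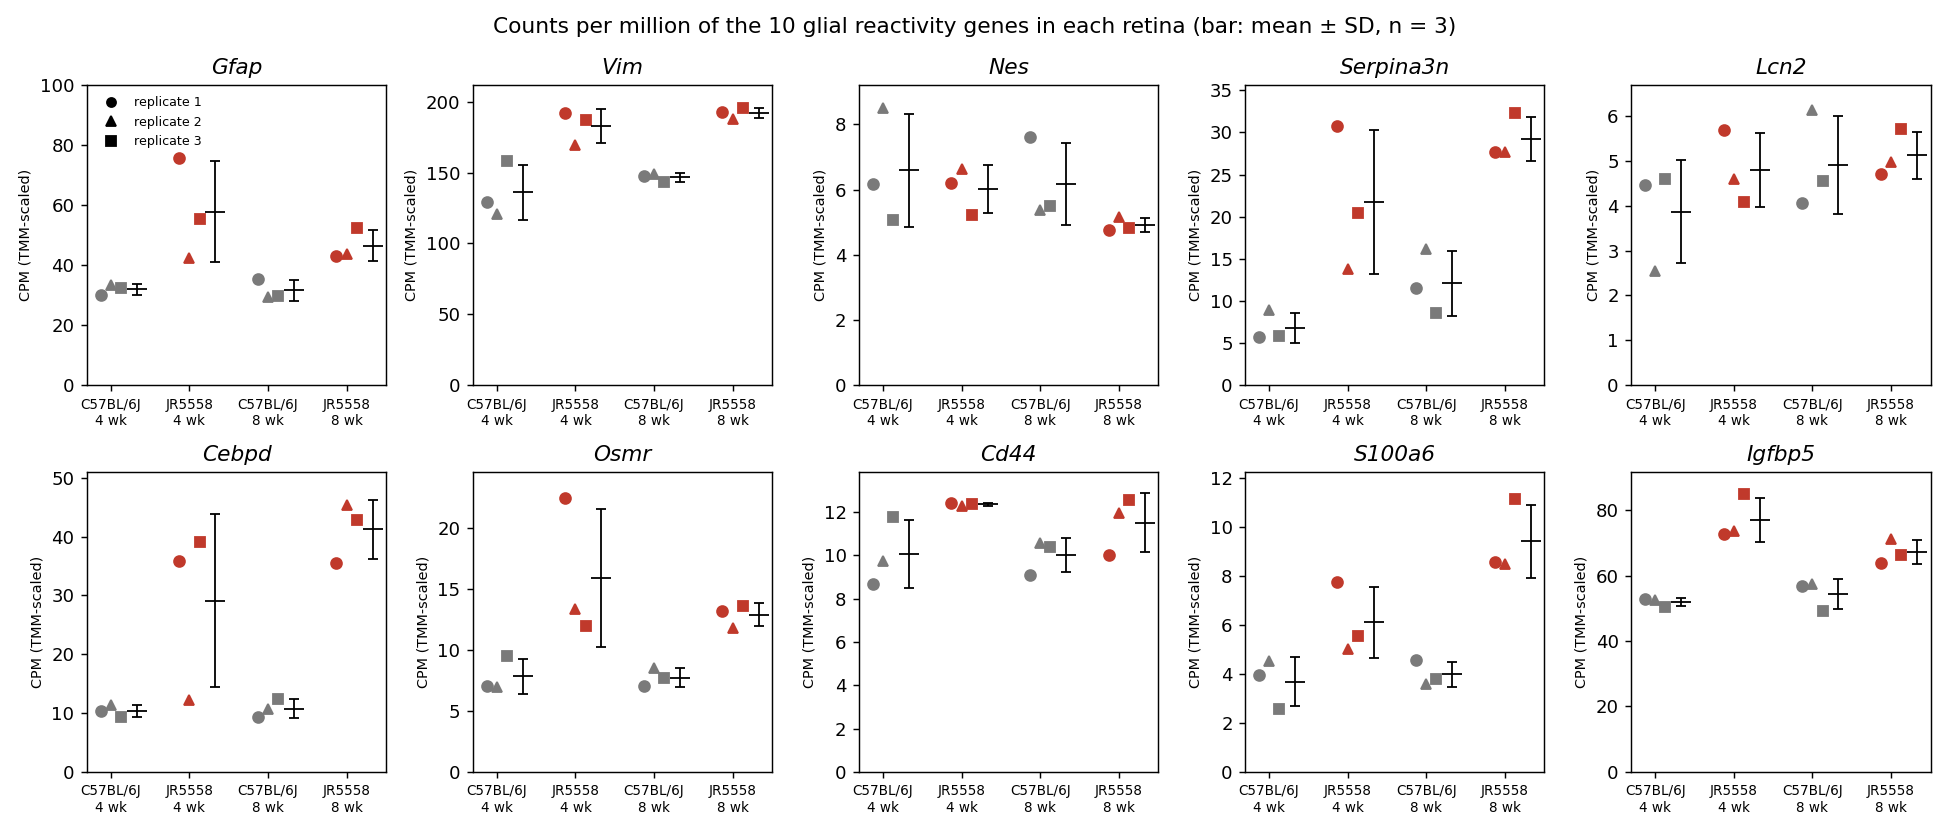
CPM of each of the 10 genes (vertical axes, each from 0) in every retina, by strain and age; marker shapes give the replicate number and bars the mean ± SD of 3 mice. JR5558 retinas (red) lie above the C57BL/6J retinas (grey) of the same age for Gfap, Vim, Serpina3n, Cebpd, Osmr, S100a6 and Igfbp5 at both ages, while Lcn2 overlaps at both.

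Among the secreted proteins, Serpina3n, an acute-phase inhibitor of serine proteases that reactive astrocytes release, had the largest fold change of the 10 at 4 weeks. Its level was 5.74, 8.87 and 5.83 CPM in C57BL/6J and 30.8, 13.8 and 20.5 CPM in JR5558 at that age. In the older mice the levels were 11.5, 16.2 and 8.50 CPM against 27.7, 27.7 and 32.3 CPM. Serpina3n was 3.20-fold higher in JR5558 at 4 weeks (1.68 ± 0.26, edgeR adjusted p = 0.000295) and 2.43-fold higher at 8 weeks (1.28 ± 0.24, adjusted p = 0.00281), and the strains did not overlap. The call held in 12 of 12 fits that each left out 1 library, at both ages. Of its gene cluster only 1 other gene, Serpina3g, could be tested, and it did not pass (0.42 ± 0.71 and 0.57 ± 0.68).

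Igfbp5 encodes a secreted protein that binds insulin-like growth factors. At 4 weeks it stood at 52.8, 52.7 and 50.5 CPM in C57BL/6J and at 72.7, 73.6 and 84.8 CPM in JR5558. The 8-week levels were 56.8, 57.5 and 49.2 CPM against 63.9, 71.2 and 66.3 CPM. The strains did not overlap at either age, with the smaller gap at 8 weeks. Igfbp5 was 1.48-fold higher at 4 weeks (0.57 ± 0.09, edgeR adjusted p = 0.000345) and had a ratio of 1.23 at 8 weeks, which did not pass (0.30 ± 0.09, adjusted p = 0.0553). That difference did pass in DESeq2 (adjusted p = 0.0274), and in edgeR with the groups of 8 weeks alone (0.0108), with no filter on low counts (0.0410) or with a filter of at least 1 CPM in 3 libraries (0.0446). It also passed without replicate 3 of C57BL/6J (0.0300) or of JR5558 (0.0285) at 4 weeks. Of 10 genes of the insulin-like growth factor system tested, 3 were higher at 4 weeks (Igfbp2, Igfbp5 and Igfbp7) and 1 at 8 weeks, Igfbp3 (1.27 ± 0.28, adjusted p = 0.00819). The calls of Igfbp2 (without replicate 3 of either 4-week group) and Igfbp7 (without any C57BL/6J retina of 4 weeks, or JR5558 replicate 1 or 3) each ended in a fit with 1 library less, and so did that of Igfbp3 (without JR5558 replicate 3 of 8 weeks, adjusted p = 0.0775).

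Lcn2 encodes lipocalin 2, an iron-siderophore binding protein that is among the most inducible genes of reactive astrocytes. In these retinas it did not pass the test at either age. Lcn2 stood at 4.46, 2.55 and 4.61 CPM in C57BL/6J and at 5.69, 4.60 and 4.08 CPM in JR5558 at 4 weeks. Levels at 8 weeks were 4.06, 6.14 and 4.54 CPM against 4.71, 4.97 and 5.72 CPM. The strains overlapped at both ages, and the log2 fold changes were 0.31 ± 0.24 (edgeR adjusted p = 0.546) and 0.07 ± 0.24 (adjusted p = 0.934). Its counts ran from 48 to 138 per library, which limits the precision of both values. Neutrophils also make much lipocalin 2, and their markers were near 0: none of 10 could be tested, they summed to at most 0.524 CPM in any library, and Ngp, Mpo and Mmp8 had 0 counts in all 12. A count of 0 allows up to 3 counts, or 0.166 CPM in the shallowest library, for counting error only.

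Osmr encodes the receptor subunit that binds oncostatin M together with gp130. At 4 weeks it stood at 7.02, 6.96 and 9.45 CPM in C57BL/6J and at 22.4, 13.3 and 12.0 CPM in JR5558. The values of 8 weeks were 7.00, 8.52 and 7.65 CPM against 13.2, 11.8 and 13.6 CPM. The strains did not overlap, and JR5558 replicate 1 of 4 weeks was the highest of all 12. Osmr was 2.04-fold higher at 4 weeks (1.03 ± 0.20, edgeR adjusted p = 0.00316) and 1.67-fold higher at 8 weeks (0.74 ± 0.20, adjusted p = 0.0398). The 8-week call ended when any 1 of the 6 libraries of that age was left out (adjusted p up to 0.172, without C57BL/6J replicate 1).

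Cebpd encodes C/EBP delta, a transcription factor of the acute-phase response. It stood at 10.4, 11.4 and 9.31 CPM in C57BL/6J and at 35.9, 12.2 and 39.1 CPM in JR5558 at 4 weeks. At 8 weeks the levels were 9.24, 10.7 and 12.4 CPM against 35.5, 45.3 and 42.7 CPM. JR5558 replicate 2 of 4 weeks lay just above the controls, and the other 5 JR5558 retinas lay far above them. Cebpd was 2.82-fold higher at 4 weeks (1.50 ± 0.28, edgeR adjusted p = 0.00188) and 3.84-fold higher at 8 weeks, the largest fold change of the 10 at that age (1.94 ± 0.28, adjusted p = 0.000139). Without JR5558 replicate 2 the 4-week value was 1.86. The authors' deposited table gives 1.48 at 4 weeks with an adjusted p of 0.0687, so there Cebpd does not pass. Of the 5 genes of the C/EBP family tested, Cebpd alone passed at either age, and Cebpb stood at 0.17 ± 0.41 and 0.82 ± 0.39.

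S100a6 encodes a calcium-binding protein found in astrocytes and in dividing cells. It stood at 3.95, 4.52 and 2.59 CPM in C57BL/6J and at 7.76, 5.02 and 5.55 CPM in JR5558 at 4 weeks. In the older mice the levels were 4.58, 3.60 and 3.80 CPM against 8.60, 8.51 and 11.2 CPM. The strains did not overlap at either age. The 4-week difference missed the threshold (0.74 ± 0.23, edgeR adjusted p = 0.0653), though DESeq2 placed it past 0.05 (adjusted p = 0.0484) and a fit without JR5558 replicate 2 of 4 weeks did so too (edgeR, 0.0498), as did edgeR with no filter on low counts (0.0274). At 8 weeks S100a6 was 2.35-fold higher (1.23 ± 0.22, adjusted p = 0.00180). Of 7 S100 genes tested, 1 was higher at each age: S100a16 at 4 weeks (0.57 ± 0.12, adjusted p = 0.00688) and S100a6 at 8 weeks. S100b, a further astrocyte marker of that family, stood at -0.36 ± 0.16 and -0.27 ± 0.16 and passed at neither.

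Cd44 encodes the receptor for hyaluronan, which lies on Müller cell processes. It stood at 8.69, 9.72 and 11.8 CPM in C57BL/6J and at 12.4, 12.3 and 12.4 CPM in JR5558 at 4 weeks. The 8-week levels were 9.10, 10.6 and 10.4 CPM against 10.0, 12.0 and 12.6 CPM. The strains did not overlap at 4 weeks and overlapped at 8 weeks, and neither difference passed (0.29 ± 0.14, edgeR adjusted p = 0.273, and 0.20 ± 0.14, adjusted p = 0.518). Of 10 genes of hyaluronan handling and Cd44 partners tested, Ezr, which encodes the membrane linker ezrin, was higher at both ages (0.97 ± 0.13 and 0.70 ± 0.13). Spp1, which encodes osteopontin, a ligand of CD44, was lower at 8 weeks (-0.52 ± 0.13, adjusted p = 0.0252), a call that ended when any 1 of the 6 libraries of 8 weeks was left out.

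**Figure D2:**
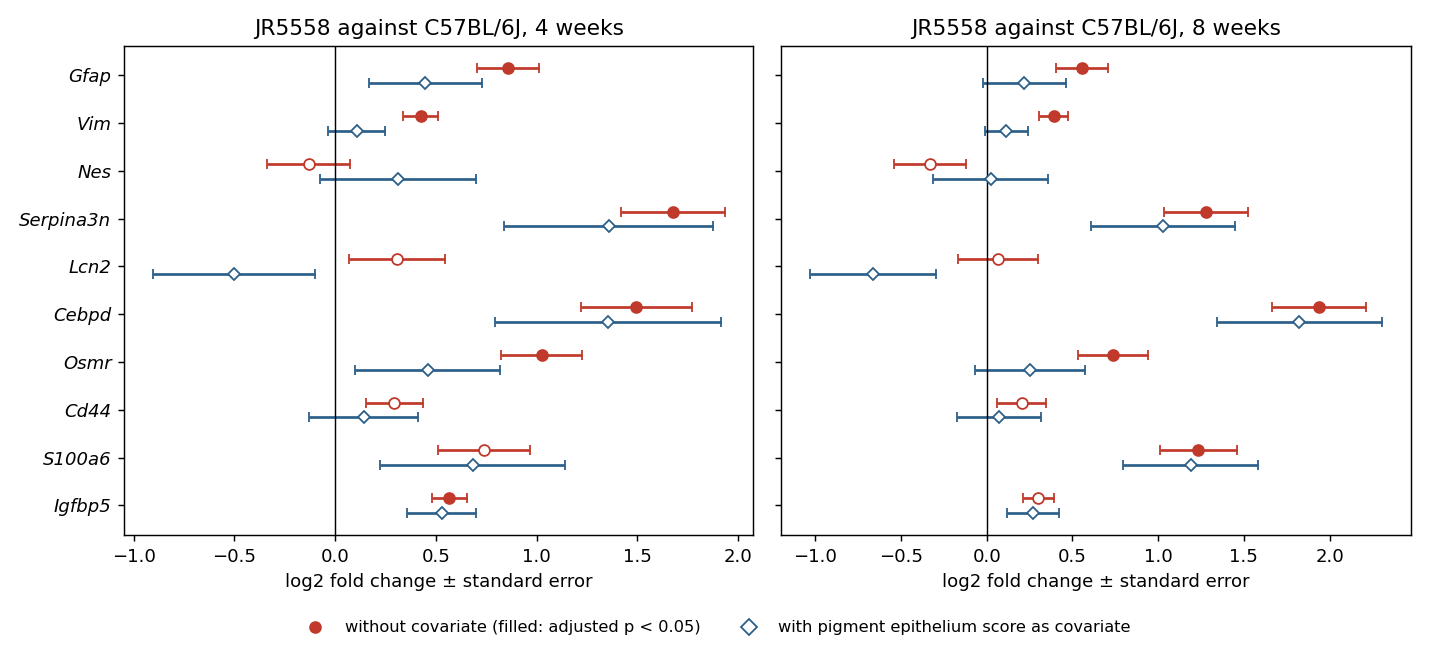
Log2 fold change of JR5558 against C57BL/6J for each of the 10 genes at 4 weeks (left) and 8 weeks (right), with standard errors as bars. Circles are the edgeR fit (filled where the adjusted p is below 0.05) and diamonds the same fit with a pigment epithelium covariate, in which no gene passes.

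In all, 8 of the 10 genes had every JR5558 retina above every C57BL/6J retina at 4 weeks, where 10.1% of all tested genes did, and 0 had every one below, where 9.55% did. At 8 weeks 7 of the 10 did, where 14.9% of all tested genes did, and Nes was the 1 gene with every JR5558 retina below, as were 15.3% of all tested genes. With an unadjusted p under 0.05, 7 members stood at each age, as did 19.1% of all tested genes at 4 weeks and 17.4% at 8 weeks. Of the 10 genes, in the authors' deposited table, 5 had an adjusted p below 0.05 at 4 weeks (Gfap, Vim, Serpina3n, Igfbp5 and Osmr) and 7 at 8 weeks (these with Cebpd and S100a6). Of all genes with an adjusted p in that deposited table of the authors, 2.73% passed at 4 weeks and 7.62% at 8 weeks.

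**Figure D3:**
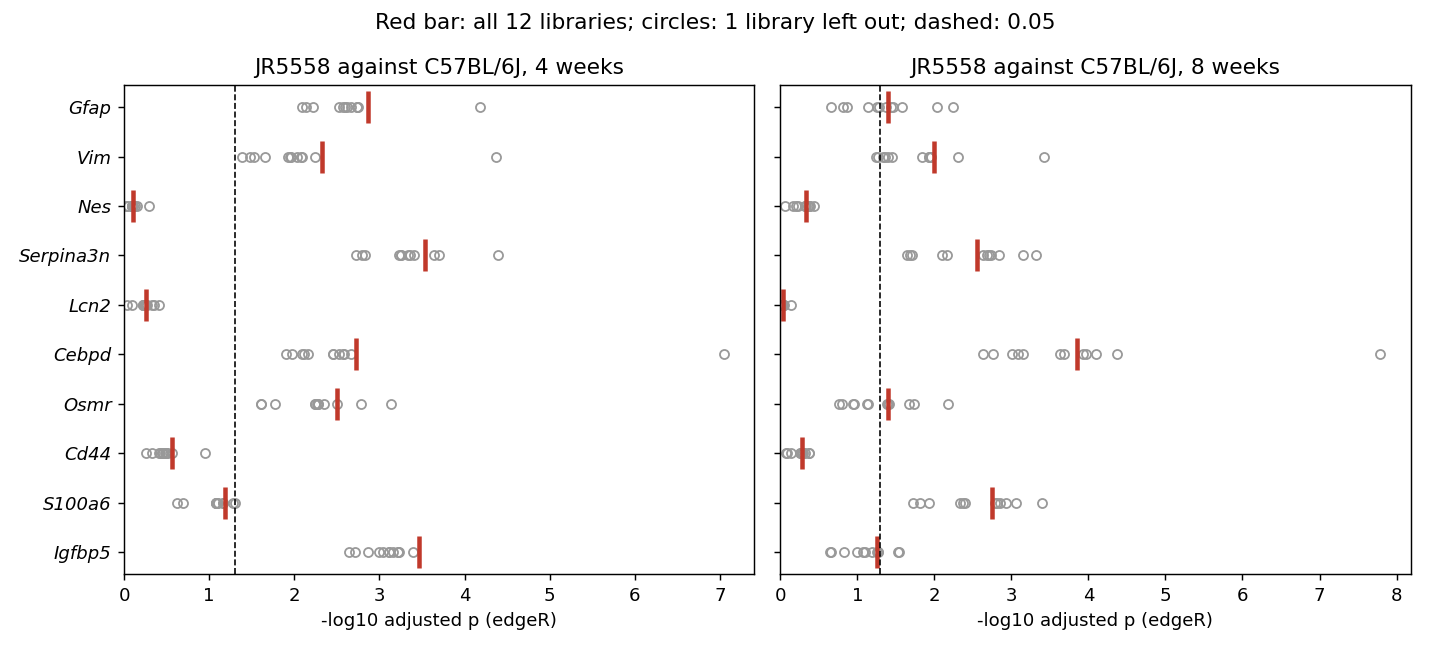
Adjusted p of each gene on a −log10 scale (horizontal axis) with all 12 libraries (red bar) and with each library left out in turn (circles), at 4 weeks (left) and 8 weeks (right); the dashed line is 0.05. At 4 weeks all 6 calls hold in 12 of 12 fits, while at 8 weeks Gfap and Osmr pass in 6 of 12.

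From 4 to 8 weeks no member passed the test in either strain, though 2 did once the filter on low counts was dropped. In C57BL/6J 0.431% of all tested genes passed and 0 of the 10 members did in edgeR, with 1 at an unadjusted p under 0.05 (14.4% of all tested genes), and 0 members passed in DESeq2 (3.24% of all genes there). That member was Serpina3n, which stood at 6.81 ± 1.78 CPM at 4 weeks and 12.1 ± 3.85 CPM at 8 weeks (SD, n = 3, log2 fold change 0.82 ± 0.26, edgeR adjusted p = 0.164), with ranges that overlapped. With no filter on low counts Serpina3n passed (edgeR adjusted p = 4.4e-05), as did 1.4% of the 31728 genes then tested. In JR5558 1.51% of all tested genes passed and 0 members did in edgeR or in DESeq2 (4.86% of all genes there), with 3 at an unadjusted p under 0.05 (16.9% of all tested genes). With no filter Cebpd (0.52 ± 0.13, edgeR adjusted p = 0.00322) and Serpina3n (0.44 ± 0.14, adjusted p = 0.0484) passed there, as did 2.69% of the genes then tested. S100a6 stood at 6.11 ± 1.45 CPM and then 9.42 ± 1.50 CPM (0.62 ± 0.22, edgeR adjusted p = 0.148). Gfap stood at -0.32 ± 0.15 (edgeR adjusted p = 0.290) and Igfbp5 at -0.20 ± 0.09 (adjusted p = 0.256) from 4 to 8 weeks. Every JR5558 retina of 8 weeks lay above every one of 4 weeks for 1 member, S100a6, and below for 2, Igfbp5 and Nes. The share of all tested genes with such a separation of the ages was not counted, so it is not read as a trait of these members. Age and sex cannot be told apart in JR5558, as given above.

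The strain difference itself was compared between ages by an interaction term, which is mixed with sex, since only the JR5558 retinas of 4 weeks had Ddx3y counts. By this test 0.0927% of all genes passed and 0 of the 10 members did, with 1 at an unadjusted p under 0.05 (7.19% of all genes), and 0 members passed in DESeq2 (0.353% of all genes there). That was Igfbp5 (-0.27 ± 0.12, edgeR adjusted p = 0.689). The change in strain difference from 4 to 8 weeks was 0.50 ± 0.32 for S100a6, 0.44 ± 0.39 for Cebpd, -0.40 ± 0.35 for Serpina3n and -0.30 ± 0.22 for Gfap, each smaller than 2 standard errors. A gene that passed at 1 age only, as Igfbp5 and S100a6 did, is thus not shown to differ between ages.

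Linked genes of the interleukin-6 and STAT3 route moved unevenly along the pathway. Of 8 ligand genes 4 could be tested and 0 passed at either age. Il6 had 0 counts in all 12 libraries, Osm at most 4, Cntf at most 5 and Il11 at most 15. Lif, which encodes leukaemia inhibitory factor, had 12, 11 and 6 counts in C57BL/6J and 36, 21 and 26 in JR5558 at 4 weeks, so that the strains did not overlap. At 8 weeks it had 23, 16 and 5 counts against 11, 13 and 6. The Lif values were 1.34 ± 0.53 (edgeR adjusted p = 0.163) and -0.67 ± 0.55 (adjusted p = 0.593), and the difference between ages was -2.01 ± 0.76 (adjusted p = 0.555).

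Of 9 receptor and kinase genes, 1 was higher at each age, Osmr. The shared subunit Il6st stood at 0.14 ± 0.09 and 0.20 ± 0.09, and Lifr, the receptor for LIF, at -0.30 ± 0.10 (edgeR adjusted p = 0.0956) and -0.28 ± 0.10 (adjusted p = 0.127). Of Stat3 and 9 genes that STAT3 is known to act on, 6 were higher and 0 lower at 4 weeks (median 0.87) and 5 were higher and 0 lower at 8 weeks (median 0.63). Cebpd and Gfap are counted in that list. Stat3 itself was higher at both ages (0.52 ± 0.09, adjusted p = 0.00154, and 0.50 ± 0.09, adjusted p = 0.00284). Bcl3, a nuclear cofactor of NF-kappaB, was higher by 2.97 ± 0.48 and 2.18 ± 0.46, and Junb, a subunit of AP-1, by 0.89 ± 0.21 and 0.96 ± 0.21. Socs3, the feedback inhibitor of this route whose STAT letters are printed above, stood at 5.51, 5.95 and 3.90 CPM in C57BL/6J and 15.6, 4.97 and 10.2 CPM in JR5558 at 4 weeks. It passed at 4 weeks (1.01 ± 0.28, adjusted p = 0.0370) and not at 8 weeks (0.61 ± 0.28, adjusted p = 0.268). The Socs3 call held in 5 of 12 fits with 1 library less and ended without any of C57BL/6J replicates 1, 2 and 3 and JR5558 replicates 1 and 3 of 4 weeks, C57BL/6J replicate 2 of 8 weeks or JR5558 replicate 3 of 8 weeks (adjusted p up to 0.222). At 8 weeks those of Bcl3 and Junb ended without C57BL/6J replicate 1 (0.0546 and 0.0715). At 4 weeks the Junb call was lost in the fits that dropped JR5558 replicate 1, JR5558 replicate 3 or C57BL/6J replicate 3 (up to 0.0867).

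Published sets of reactive astrocyte genes were counted beside all tested genes, of which 6.16% passed at 4 weeks and 5.18% at 8 weeks. Of 12 genes tested that are induced in reactive astrocytes of several kinds, 5 were higher at each age, and 4 of these 5 are members here (Gfap, Vim, Serpina3n and Osmr). The other was Steap4, a metalloreductase gene, higher by 2.19 ± 0.40 and 1.95 ± 0.38 (edgeR adjusted p = 0.00157 and 0.00344). Of 11 genes of the neuroinflammatory type 1 was higher at each age, the MHC class I gene H2-D1 (0.74 ± 0.14 and 0.96 ± 0.14). Of 10 genes of the ischaemic type 0 passed at either age. The counts of the neuroinflammatory and ischaemic types lie near the shares of all genes. A difference between the sets was not tested and is not shown. Among 5 tested genes for injury signals, 2 were higher at both ages. Edn2, which encodes the endothelin that stressed photoreceptors release, was higher by 2.94 ± 0.31 and 2.80 ± 0.29, and Fgf2, which encodes a survival factor for photoreceptors, by 1.84 ± 0.21 and 1.90 ± 0.21.

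**Figure D4:**
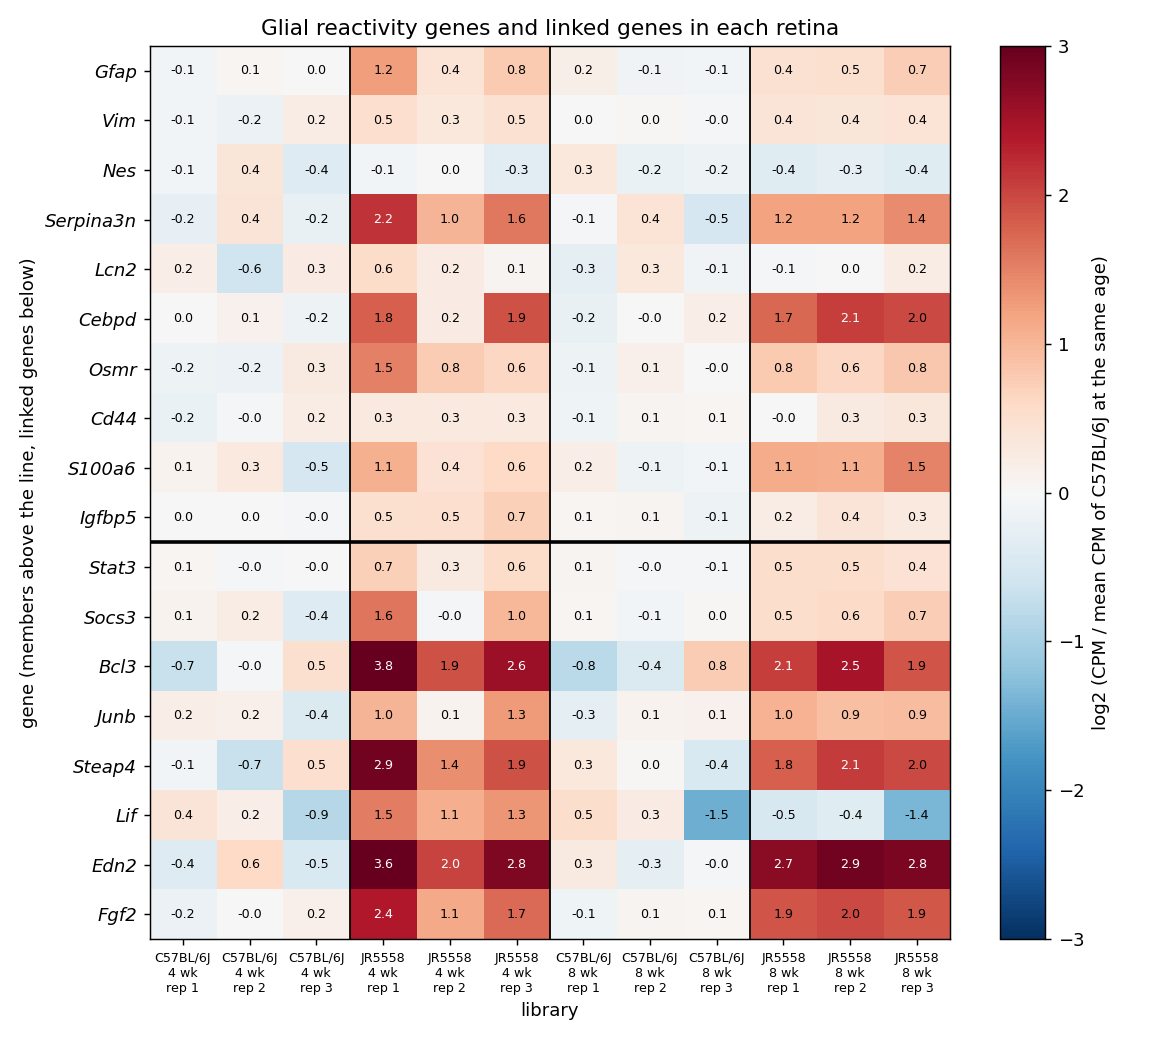
Log2 ratio of each retina's CPM to the mean CPM of C57BL/6J retinas of the same age (colour and printed value) for the 10 genes (above the line) and 8 linked genes (below), with 1 column per retina. JR5558 replicate 2 of 4 weeks is the palest of the 3 JR5558 columns of that age for Gfap, Serpina3n, Cebpd, Socs3, Bcl3, Junb, Steap4, Edn2 and Fgf2.

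The JR5558 retinas of 4 weeks differed from each other in some of these genes and were close in others, such as Cd44 (12.4, 12.3 and 12.4 CPM). Replicate 2 was the lowest of the 3 for Gfap, Serpina3n, Cebpd, S100a6 and Vim among the members, and for Stat3, Socs3, Bcl3, Junb, Steap4, Edn2 and Fgf2 among the linked genes. Edn2, for example, stood at 61.7, 21.2 and 36.5 CPM in replicates 1 to 3, and Fgf2 at 114, 47.2 and 69.8 CPM. Replicate 1 was the highest of the 3 for Gfap, Serpina3n, Osmr, S100a6 and Vim. Other genes went otherwise: replicate 2 was the highest for Nes, Lifr and Ezr, and lay between the others for Osmr, Lcn2 and Igfbp5. At 8 weeks the 3 JR5558 retinas lay closer together for Gfap, Serpina3n, Cebpd and Osmr. After subtraction of the group means, log2 CPM of Gfap correlated over the 12 libraries with that of Serpina3n (Pearson r = 0.70), S100a6 (0.67) and Cebpd (0.64), and Vim and Nes had the most negative value of the 45 pairs (-0.69). These values describe 12 libraries that share their group means and are given with no test.

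By the same measure over 14717 named genes, those most like Gfap were Enc1 (r = 0.947), Pisd (0.945), Mterf1a (0.930), Fgf2os (0.925) and H2-Q4 (0.921). Those most like Serpina3n were Dcst2 (0.915), Dynlt1a (0.879), Zcrb1 (0.878), Tifab (0.869) and Notch1 (0.859). Fgf2os, an RNA from the Fgf2 locus, was higher in JR5558 at both ages (2.44 ± 0.38 and 2.26 ± 0.37), and Dynlt1a was lower at 4 weeks (-1.07 ± 0.29, edgeR adjusted p = 0.0320). The other 8 passed at neither age. A list of the highest values among so many genes holds high values by its making.

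Markers of the cells that make these genes were compared beside them. Of 15 Müller glia markers 7 were higher at 4 weeks and 5 at 8 weeks, with 0 lower. Their sum ran from 5914 to 7044 CPM in controls and from 7114 to 8068 CPM in JR5558 at 4 weeks, and 6954 to 7379 CPM against 8463 to 8996 CPM at 8 weeks, so the strains did not overlap. Rlbp1, a retinoid carrier gene among these markers, was higher by 0.72 ± 0.08 and 0.61 ± 0.08. Whether its RNA came from Müller cells alone was not tested. Kcnj10, their potassium channel, was higher at 4 weeks (0.58 ± 0.08), and Glul, their glutamine synthetase, passed at neither age (0.02 ± 0.08 and 0.26 ± 0.08). Of 8 astrocyte markers, Gfap included, 3 were higher at 4 weeks and 2 at 8 weeks, with medians of 0.16 and 0.06. At 4 weeks their sum ran from 471 to 507 CPM in controls and from 498 to 604 CPM in JR5558. At 8 weeks it ran from 484 to 499 CPM against 480 to 539 CPM, so the strains overlapped at both ages. Pax2, the transcription factor that marks retinal astrocytes, stood at -1.51 ± 0.77 (edgeR adjusted p = 0.301) and 0.03 ± 0.73 (adjusted p = 0.994). Aldh1l1, a further astrocyte marker of that list, was higher at both ages (0.39 ± 0.11, edgeR adjusted p = 0.0448, and 0.59 ± 0.11, adjusted p = 0.00241). Summed levels of the 15 microglia and macrophage markers were 85.9 to 118.7 CPM in JR5558 retinas and 65.6 to 78.5 CPM in C57BL/6J retinas, with 4 of 15 markers higher at 4 weeks, 5 at 8 weeks and none at 0 throughout. The 10 endothelial markers summed to 413 to 463 CPM in JR5558 and 327 to 358 CPM in C57BL/6J. Of these 10, 1 was higher at each age and 1 lower at 8 weeks. Their median log2 fold change was 0.03 at 4 weeks and -0.25 at 8 weeks, so the higher sums do not describe the typical marker. Of the 10 rod markers 2 were lower at 8 weeks, Gnat1 (-0.34 ± 0.06, edgeR adjusted p = 0.00216) and Pde6b (-0.28 ± 0.07, adjusted p = 0.0141), and 0 passed at 4 weeks. The part of these cells in the members' differences was not tested.

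Pigment epithelium, the layer behind the photoreceptors that can stay attached to a dissected retina, moved with strain as well. Of its 17 markers 12 were higher in JR5558 at 4 weeks and 4 at 8 weeks, none was lower, and none was at 0 throughout. Their sum was 512 to 780 CPM in JR5558 retinas and 214 to 428 CPM in C57BL/6J retinas. A score, the mean log2 CPM of the 17 markers, ran from 2.28 to 3.13 in C57BL/6J and from 3.67 to 4.14 in JR5558, so the strains did not overlap and the score takes up part of the strain difference. Within JR5558 of 4 weeks it was 4.06, 3.67 and 3.87 in replicates 1 to 3, so replicate 2 was lowest here too. With this score as a covariate 0 of the 10 members passed at either age (lowest edgeR adjusted p 0.221 and 0.0878), 9 of the 10 stood above 0 at each age, and the medians were 0.45 and 0.24. Values of Serpina3n (1.36 ± 0.52 and 1.03 ± 0.42), Cebpd (1.35 ± 0.56 and 1.82 ± 0.48), Igfbp5 (0.53 ± 0.17 and 0.27 ± 0.15) and S100a6 (0.68 ± 0.46 and 1.19 ± 0.39) were 0.805 to 0.963 of those without it, with standard errors 1.71 to 2.03 times as large. Those of Gfap (0.45 ± 0.28 and 0.22 ± 0.24), Vim (0.11 ± 0.14 and 0.11 ± 0.13) and Osmr (0.46 ± 0.36 and 0.25 ± 0.32) were 0.250 to 0.521 of those without it. Pigment epithelium content and strain cannot be told apart in these libraries. Edn2 passed with the covariate at both ages (2.91 ± 0.64, adjusted p = 0.0297, and 2.78 ± 0.51, adjusted p = 0.00679). Of the 14 linked genes named here that passed at 4 weeks without the covariate, Edn2 alone passed with it, and the other 13 did not (adjusted p 0.0749 to 0.971). Of 11 at 8 weeks, 3 passed with it (Edn2, Fgf2 and Spp1) and 8 did not (0.110 to 0.747). Krt8 and Krt18 are counted among these linked genes and are also among the 17 markers of the score. The loss of their calls was thus partly fixed in advance and says nothing further about them. The value of Steap4 was 0.58 ± 0.67 and 0.61 ± 0.58 with the covariate, that of Stat3 0.34 ± 0.18 and 0.34 ± 0.15, and that of Bcl3 2.73 ± 0.98 and 1.98 ± 0.86.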

How the data were processed

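Whole-retina RNA of 12 mice was sequenced. The submitters' processing notes name 3 tools (HISAT2 2.0.5, fastp, featureCounts 1.5.0-p3) and, as genome build, mm10. Per the file headers, the deposited file holds raw counts per gene and library and FPKM values. It also holds the log2 fold changes and the p-values that the authors computed between groups, by a test not given in the sources used here.

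Samples were grouped by strain and age from the labels. Counts were analysed in R 4.3.3 with edgeR 4.0.16 (limma 3.58.1, and version 1.17.8 of data.table): filterByExpr by group (minimum count 10, minimum total 15), TMM scaling, a mean for each of 4 groups, fitted to all 12 libraries (8 residual degrees of freedom) and 2-sided quasi-likelihood tests, adjusted by Benjamini-Hochberg over 18334 genes at 0.05. CPM use TMM-scaled totals, with a prior count of 2 on the log2 scale. Values after ± are standard errors for log2 fold changes and SD for CPM. The edgeR standard errors were derived as the absolute log2 fold change divided by the square root of the quasi-likelihood F value. Depth was 18029611 to 23739886 counts per library. The script was tested on simulated data.

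The 10 genes and the gene lists were chosen with earlier results of these data known. The text names all 10 members, up to 4 genes past the threshold from each list, fixed ligand, receptor and STAT3 genes, the first defining markers of cell types, and the 5 genes most like Gfap and Serpina3n. Some genes that this rule selects are left out for length, and non-passing genes of a list given for context (Cebpb, Serpina3g, Nefl, Nefm, Nefh, S100b) were chosen after their values were seen. Alternatives were RLE scaling, no filter, at least 1 CPM in 3 libraries, DESeq2 1.42.0, a pigment epithelium covariate, no genes of chromosomes X and Y, a fit of the compared groups alone, a block for replicate number, and 1 library left out at a time.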

Additional observations from a re-analysis of the deposited data

How the results depend on the processing

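The count of members past the threshold was 6 at each age and stayed at 5 to 7 under RLE scaling, no filter, at least 1 CPM in 3 libraries, DESeq2, only the groups compared, the replicate block, and without genes of chromosomes X and Y. With the pigment epithelium covariate it was 0 at each age. With 1 library left out it was 6 to 7 at 4 weeks and 3 to 7 at 8 weeks, the lowest without replicate 3 of C57BL/6J or of JR5558 at 8 weeks. With no filter 1 member passed for age in C57BL/6J (Serpina3n) and 2 for age in JR5558 (Cebpd and Serpina3n), where the fit with the filter gave 0. The cause of these changes was not tested.

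The replicate block gave 6 members at 4 weeks and 5 at 8 weeks (Osmr lost, adjusted p = 0.0586). Same-numbered libraries correlated at -0.09 to 0.09 after subtraction of group means, so the numbers are not taken to pair the mice.

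Directions turned 33 times, none of them past the threshold. With the pigment epithelium covariate the log2 fold changes were, at 4 weeks, 0.31 for Nes, -0.50 for Lcn2, -0.063 for Il6st and -0.083 for Krt8. At 8 weeks they were 0.023 for Nes, -0.66 for Lcn2, -0.073 for Krt8 and -0.12 for Igfbp7, and the strain by age value of Vim was 0.0058. Krt8 is itself among the markers averaged in that covariate. Leaving out 1 library gave -0.29 to 0.082 for Nes at 4 weeks, and -0.057 to 0.26 for Lcn2 and -0.053 to 0.26 for Igfbp7 at 8 weeks. For age in C57BL/6J it gave -0.11 to 0.030 for Gfap, -0.27 to 0.13 for Nes, -0.062 to 0.16 for Cebpd, -0.083 to 0.29 for S100a6, -0.11 to 0.12 for Cd44 and -0.11 to 0.14 for Osmr. For age in JR5558 it gave -0.0035 to 0.25 for Lcn2 and -0.48 to 0.032 for Osmr. For strain by age it gave -0.16 to 0.063 for Vim, -0.39 to 0.0051 for Lcn2, -0.22 to 0.014 for Cd44 and -0.45 to 0.057 for Osmr.

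Counts over all genes moved more. At 4 weeks 1130 genes passed, 558 with only the groups compared and 187 with the covariate. At 8 weeks 949 passed, 2183 with only the groups compared, 218 with the covariate, and 538 to 1373 with 1 library left out. For age in C57BL/6J 79 passed, 445 with no filter, 410 in DESeq2, 22 with only the groups compared and 16 to 126 with 1 library left out. For age in JR5558 277 passed, 854 with no filter, 705 in DESeq2, 544 with only the groups compared and 63 to 987 with 1 library left out. For strain by age 17 passed, 96 with no filter, 62 in DESeq2, 9 without genes of chromosomes X and Y and 6 to 38 with 1 library left out. Among the members low counts limit Nes, Lcn2 and S100a6 most. Other genes given here had fewer counts per library, such as Lif (5 to 36), Pax2 (0 to 21) and Serpina3g (1 to 14). In C57BL/6J retinas Bcl3 (8 to 31) and Steap4 (9 to 27) were low as well, which limits their fold changes.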
